A study of Mus musculus with 12 samples.

Results

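The sites described here are places of open chromatin in mouse proerythroblasts that carry H3K4me3 but no H3K27ac in fetal liver. There were 2209 of them among 16271 open sites in all, or 13.6% (exact Clopper-Pearson 95% interval 13.1 to 14.1, counting error only). An open site was a stretch of merged ATAC-seq peaks that held a peak of each of the 2 proerythroblast libraries. Histone regions were merged in the same way, and a site was chosen when it shared at least 1 bp with an H3K4me3 region and none with an H3K27ac region. The sites were thus chosen by the presence of ATAC, H3K4me3 and H3K27ac peaks, and values of H3K4me3 and H3K27ac at them are given as a description with no test. Where only peaks with −log10 q of at least 5 were used, the share was 22.8%.

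Every sample came from C57BL/6 embryos at day 14.5, with no treatment or altered allele named in the labels. Openness was measured in 2 ATAC-seq libraries of proerythroblasts. Histone marks were measured by ChIP-seq of fetal liver, in 2 libraries each for H3K4me3, H3K27ac and H3K4me2 and in 3 for H3K4me1. Input DNA formed a group of its own and was not analysed here. The main comparison is with the 10097 open sites that carried both H3K4me3 and H3K27ac. A further 2236 sites had H3K27ac without H3K4me3, and 1729 had neither. The marks come from all cells of the liver and the openness from a single early stage of red cell precursors, so a mark on fewer cells and a weaker mark per cell cannot be told apart. The labels do not say that libraries of a group came from separate litters, so their spread may be technical. No annotation of the files' genome build was used, so the sites are given by position in mm9, without gene names, and the labelled cell type was not checked at marker genes.

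H3K4me3 is laid down mostly at the starts of genes, and is found at CpG-rich promoters whether or not the gene is strongly transcribed. H3K27ac is added by the acetyltransferases p300 and CBP and goes with active promoters and enhancers. The same lysine can instead carry methyl groups placed by Polycomb repressive complex 2, and promoters with that mark beside H3K4me3 are called bivalent. H3K4me1 is typical of enhancers and of promoter flanks, and H3K4me2 of both. In ATAC-seq a transposase inserts adapters into open chromatin.

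The H3K4me3 under these sites was weak and narrow. The sites lay on 2108 H3K4me3 regions, of which 2008 held 1 site, 99 held 2 and 1 held 3. The median fold enrichment of these regions over the peak caller's background was 5.07 in H3K4me3 replicate 1 and 5.93 in replicate 2, against 9.71 and 11.4 for the 8658 regions under sites with both marks. The means of these medians were 5.50 ± 0.606 and 10.6 ± 1.19 (SD, n = 2 each). The median width was 1477.5 bp against 2485 bp. The 2298 H3K4me3 regions with neither H3K27ac nor an open site were weaker still, at 3.64 and 4.07. The regions under these sites thus stood between them and the regions under sites with both marks. Strong H3K4me3 under an open site without H3K27ac was rare. Only 34 of the 2108 regions, 1.61%, exceeded the median of the both-mark regions in both H3K4me3 libraries, against 44.7% of the both-mark regions themselves and 28.8% of all 13600 H3K4me3 regions. The rule asks only that the open site lack H3K27ac. For 92 of the 2209 sites the H3K4me3 region met H3K27ac elsewhere, and the 34 were not cleared of such regions.

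**Figure D1:**
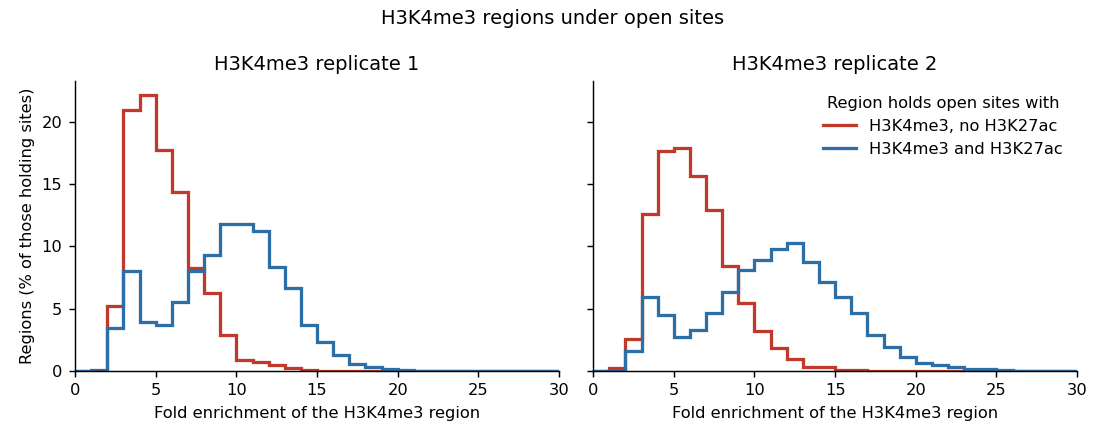
Distribution of the authors' H3K4me3 fold enrichment (x axis, bins of 1) as a percentage of regions (y axis) in each H3K4me3 library, for the 2108 regions under open sites without H3K27ac (red) and the 8658 under sites with it (blue). The red curves peak near a fold of 5 and the blue curves near 10 to 12, with a smaller blue peak near 3 to 4.

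Divided by quartile of H3K4me3 fold enrichment, the sites fell almost entirely into the lower quartiles of open sites with H3K4me3. The lowest quartile held 1369 of them, 44.5% of its 3077 sites. The next held 725, the third 98 and the highest 17, or 0.552%. The open site usually lay within the H3K4me3 region in both classes. The ATAC summit lay inside the H3K4me3 region at 95.3% of sites without H3K27ac and at 98.9% of sites with it. The median offset of the summit from the region's centre was 266 bp and 432 bp, and the shorter side took a median of 31.3% and 32.2% of the region's width. With each region cut into 3 equal parts, the middle part held 44.3% and 46.2% of the summits.

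The 5 sites on the strongest H3K4me3 lay on 4 regions. The first, on chromosome 2 from 121335385 to 121335689, had an H3K4me3 fold enrichment of 14.9 and 16.1 in replicates 1 and 2, over a region of 4.56 kb that began at 121331249. It lay 1.896 kb from H3K27ac and had ATAC fold enrichments of 4.91 and 7.38. The second, on chromosome 4 from 122959825 to 122960086, had H3K4me3 at 12.9 and 17.0 and lay 0.883 kb from H3K27ac. A pair on chromosome 13, from 37916945 to 37917493 and from 37917708 to 37918018, shared a 3.476 kb region at 13.3 and 15.4 that was over 18 kb from H3K27ac. The last, on chromosome 13 from 115177355 to 115177653, had H3K4me3 at 12.3 and 14.5 and lay 54 bp from H3K27ac. These strong regions thus included some at the edge of acetylated chromatin and some well away from it.

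The widest H3K4me3 region under such a site was 11.208 kb, on chromosome 14 from 71018012 to 71029219, with fold enrichments of 11.9 and 13.7. Its site, from 71017822 to 71018290, lay at the region's left end and 0.641 kb from H3K27ac. The next 4 regions were 10.147 kb on chromosome 11 (site from 23976222 to 23976554), 9.473 kb on chromosome 2 (127188238 to 127189275), 9.328 kb on chromosome 11 (68938545 to 68939144) and 8.223 kb on chromosome 11 (120093947 to 120094335). Their sites lay 1.895, 4.284, 24.577 and 70.102 kb from H3K27ac. The single region with 3 such sites was on chromosome 5 from 3340484 to 3345449, with H3K4me3 at 9.05 and 10.7, and each of its sites was weak in ATAC, between 3.03 and 4.19. The first regions with 2 sites in genome order were on chromosome 1 from 158603182 to 158605136 and from 182498506 to 182501253. The ATAC folds of their sites ran from 3.25 to 8.56.

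H3K27ac was absent from most of these sites in both libraries and not only in the consensus. Of the 2209, 1802 (81.6%, 95% interval 79.9 to 83.2) had no H3K27ac peak of either library. Another 359 had a peak of H3K27ac replicate 1 alone and 48 a peak of replicate 2 alone, 407 or 18.4% together (16.8 to 20.1). This share was 7.38% where the ATAC summit itself had to meet or miss the regions. Replicate 1 had the longer list, 28387 peaks against 23733. The 407 sat on stronger H3K4me3, with a median fold of 6.79 and 7.83 against 4.82 and 5.55 for the 1802. Each choice of 1 ATAC, 1 H3K4me3 and 1 H3K27ac library put between 10.1% and 15.9% of that ATAC library's peaks in this class (mean 12.9% ± 1.82, SD over 8 combinations that share libraries). With H3K27ac replicate 1 the mean was 11.8%, and with replicate 2 it was 14.0%. The titles of H3K4me3 replicate 2, H3K27ac replicate 1 and H3K4me2 replicate 1 share a tag, as do those of H3K4me3 replicate 1 and H3K4me2 replicate 2, and the labels do not explain it. The H3K4me3 and H3K27ac libraries with the same tag gave 13.4% with ATAC replicate 1 and 11.9% with replicate 2, within the range of all combinations.

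The nearest consensus H3K27ac region was usually far away. The median distance was 33.5 kb, with quartiles of 11.6 and 86.2 kb, and to the nearest peak of a single library it was 18.5 kb in replicate 1 and 30.6 kb in replicate 2. It was 17.7 kb where the ATAC summit, and not the whole site, had to meet or miss the regions. Open sites with neither mark had a median of 27.4 kb. Only 69 of the sites, 3.12%, lay within 1 kb of H3K27ac, while 22.5% lay within 10 kb and 77.9% within 100 kb. For 92 sites the H3K4me3 region itself met H3K27ac elsewhere along its length. These 92 had a median distance of 367 bp, wide H3K4me3 regions (median 3154.5 bp) and weak ATAC peaks, at a median fold of 4.64 and 5.41 against 6.02 and 7.47 at the other 2117.

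**Figure D2:**
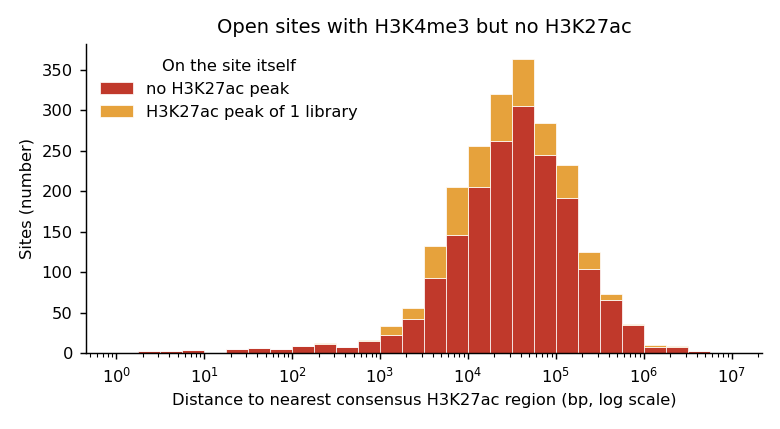
Number of open sites with H3K4me3 but no H3K27ac (y axis) by distance to the nearest consensus H3K27ac region (x axis, log scale), stacked by whether the site itself held no H3K27ac peak (red, 1802 sites) or a peak of a single library (orange, 407 sites). Most sites lie between 10 and 100 kb, around the median of 33.5 kb.

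At the limit of the rule, the 3 nearest sites lay 2, 3 and 4 bp from H3K27ac. The first was at 13200378 to 13200802 of chromosome 8, the second at 44370286 to 44370583 of chromosome 19 and the third at 50059951 to 50060317 of chromosome 6, with mean H3K4me3 folds of 13.0, 7.34 and 9.16 and mean ATAC folds of 4.60, 4.98 and 4.24. Just outside it, sites with 3, 3 and 11 bp of H3K27ac lay at 51941794 to 51942138 of chromosome 13, at 35939805 to 35940189 of chromosome 16 and at 18343856 to 18344306 of chromosome 16. Their mean H3K4me3 folds were 8.52, 13.7 and 8.29 and their mean ATAC folds 4.73, 5.79 and 8.69.

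The farthest site lay 5066.802 kb from H3K27ac, on chromosome 1 from 113760639 to 113761799. It was well open, with ATAC folds of 9.39 and 10.7, and had H3K4me3 at 5.09 and 6.54. Next came chromosome X from 126284013 to 126284402 at 4309.38 kb and chromosome 16 from 70314097 to 70314963 at 3503.626 kb. The chromosome 16 site held a peak of H3K27ac replicate 1 alone, at a fold of 2.42, and had H3K4me3 at 7.42 and 9.11. The remaining 2 of the 5 farthest were neighbours on chromosome 2, from 98502366 to 98503133 and from 98503902 to 98504198, with H3K4me3 at a fold of only 2.52 to 3.33 and no H3K4me2 peak. The first of this pair also held a peak of H3K27ac replicate 1 alone, at 1.65. Repeats and artefact-prone stretches were not filtered out, and their part at this pair was not tested.

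These sites were less open than sites with both marks in each ATAC library. Openness was ranked as the percentile of a site's highest ATAC fold enrichment among all peaks of the same library, with 100 the strongest. The median percentile was 45.2 in ATAC replicate 1 and 65.8 in replicate 2, against 68.0 and 75.6 at sites with both marks. The difference was -16.2 ± 9.24 points (SD, n = 2 libraries), lower in 2 of 2. The exact two-sided sign-flip test gave p = 0.5, the smallest p that 2 libraries allow, so no such pair can reach 0.05. Without ATAC replicate 2 the difference was -25.3 points. Where the ATAC summit, and not the whole site, had to meet or miss the regions, the difference was -10.8 ± 7.89 points. It was -5.19 ± 8.05 points when peaks under a −log10 q of 5 were left out, with opposite signs in the 2 libraries. By quartile of H3K4me3 fold, from lowest to highest, the percentiles in replicate 1 were 40.6, 53.3, 57.0 and 27.0 against 53.1, 65.0, 71.0 and 74.7. In replicate 2 they were 63.0, 71.0, 68.8 and 29.5 against 70.5, 74.1, 76.6 and 78.1. The percentiles were thus lower in every quartile and library, with the widest gap in the highest quartile, which held only 17 of these sites. The mean over the 4 quartiles, each counted equally, was -19.1 ± 3.35 points. The median ATAC fold was 5.93 and 7.40, against 8.12 and 8.60, and the median site width was 593 bp against 789 bp. The rule took the whole site, and a wider site can meet H3K27ac more easily. Width is thus tied to the rule, and its part in the ATAC values was not tested.

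Sites with H3K27ac but no H3K4me3 had ATAC percentiles of 40.05 and 67.5, and sites with neither mark lower ones, 30.4 and 51.7. Some sites with H3K4me3 and no H3K27ac were strongly open, a smaller share than among all open sites. In replicate 1, 111 of them (5.02%) were in the top 10% of all peaks, and in replicate 2, 314 (14.2%), against 16.3% and 22.0% of sites with both marks and 11.3% and 17.6% of all open sites. Across the 2209 sites ATAC fold had a Spearman correlation of 0.80 between replicates but only 0.17 with H3K4me3 fold. These are descriptions over sites of the same genome and libraries.

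The 3 most open of these sites had weak and narrow H3K4me3. The first, at 35112716 to 35113182 of chromosome 9, had ATAC folds of 26.9 and 27.3. The second, at 103598970 to 103599331 of chromosome 6, had 24.6 and 24.3 and held a peak of H3K27ac replicate 1 alone. The third, at 3109860 to 3110175 of chromosome 12, had 21.9 and 24.1. Yet their H3K4me3 regions were only 521, 434 and 365 bp wide, at folds between 1.87 and 4.01, and no H3K4me2 library had a peak there. Repeats and artefact-prone stretches were not filtered out, and their part in these values was not tested. The fourth, on chromosome 8 from 4087233 to 4087836, had ATAC at 14.8 and 15.8, H3K4me3 at 5.34 and 5.92 and H3K4me2 at 3.28 and 3.10, but no H3K4me1. Its H3K4me3 was near the median of these sites' regions. The fifth, on chromosome 9 from 22215709 to 22216326, had ATAC at 14.5 and 16.1, H3K4me3 at 4.96 and 5.83 and peaks of every H3K4me1 and H3K4me2 library.

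H3K4me2, which the rule did not use, was present at nearly all sites. Consensus H3K4me2 regions met 2196 of the 2209, or 99.4% (95% interval 99.0 to 99.7), against 95.6% of all open sites. Single libraries gave 99.5% and 99.4%, against 99.99% in each at sites with both marks and 96.0% and 95.7% over all open sites. The H3K4me2 peaks over the sites were weaker within their library than at sites with both marks. Their median percentile was 79.6 in replicate 1 and 75.2 in replicate 2, against 88.1 and 88.5, a difference of -10.9 ± 3.36 points (SD, n = 2) that was negative in 2 of 2 libraries (exact sign-flip p = 0.5, the smallest possible). On H3K4me3 regions of 1 to 2 kb it was -6.58 ± 3.33 points. They were also narrower, with median widths of 2422 and 2364.5 bp against 4553 and 4882.5 bp. Median H3K4me2 percentiles were lower than at these sites in the other classes, at 67.9 and 73.4 with H3K27ac alone and 52.7 and 51.7 with neither mark. For H3K4me2 the labels name different antibody suppliers in 2 places, and every H3K4me2 value rests on that. Catalogue numbers of the H3K4me3 and H3K27ac antibodies also differ between those places.

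The 13 sites with no consensus H3K4me2 had weak H3K4me3, with a median fold of 2.68 and 2.21, but were not weakly open, at ATAC percentiles of 51.5 and 72.2. They lay a median of 300.7 kb from H3K27ac. The top 3 sites by ATAC and the neighbouring pair on chromosome 2 are among them.

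H3K4me1 was present at most sites, but how often depended on the library. Consensus H3K4me1 met 1647 of the 2209 sites, 74.6% (95% interval 72.7 to 76.4), against 92.3% of sites with both marks and 85.5% of all open sites. In replicates 1, 2 and 3 the share was 95.4%, 57.0% and 86.1%, against 92.0%, 71.0% and 87.3% at sites with both marks and 90.3%, 69.5% and 84.9% over all open sites. The share was thus higher than at sites with both marks in replicate 1, lower in replicate 2 and nearly equal in replicate 3. The libraries did not share a sign (exact sign-flip p = 0.75), and the mean difference, -3.96 ± 9.01 points (SD, n = 3), was smaller than its SD. It was -7.63 points without replicate 1 and 1.07 points without replicate 2. It was 10.3 points where the ATAC summit itself had to lie in the regions, 2.12 points over bases covered in every library and -23.2 points with −log10 q of at least 5. Replicate 2 had the shortest H3K4me1 list, 42323 peaks against 52387 and 44542.

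What differed from sites with both marks in every library was the strength and extent of H3K4me1 where it was present. The H3K4me1 peaks over these sites were among the weaker ones, with median percentiles of 39.0, 17.4 and 20.6 in replicates 1, 2 and 3, against 76.3, 61.9 and 68.0 at sites with both marks. The difference was -43.1 ± 5.18 points (SD, n = 3), negative in 3 of 3 libraries, with exact sign-flip p = 0.25, the smallest that 3 libraries allow. With −log10 q of at least 5 it was -15.0 points. Peak widths were about 0.51, 0.50 and 0.51 times those at sites with both marks, at 2290.5, 1559 and 1890 bp against 4530, 3088 and 3714.5 bp. Sites with neither mark had still narrower H3K4me1 peaks, 1649, 1420 and 1445 bp, but higher percentiles, 55.1, 43.1 and 43.4. Sites with H3K27ac alone had the highest percentiles, 93.7, 86.3 and 90.1, and the widest peaks, 6335, 4698 and 5377 bp. Among sites on H3K4me3 regions of 1 to 2 kb, 1151 without H3K27ac and 2524 with it, the percentiles were still 38.8, 17.7 and 19.7 against 69.7, 56.1 and 60.2.

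**Figure D3:**
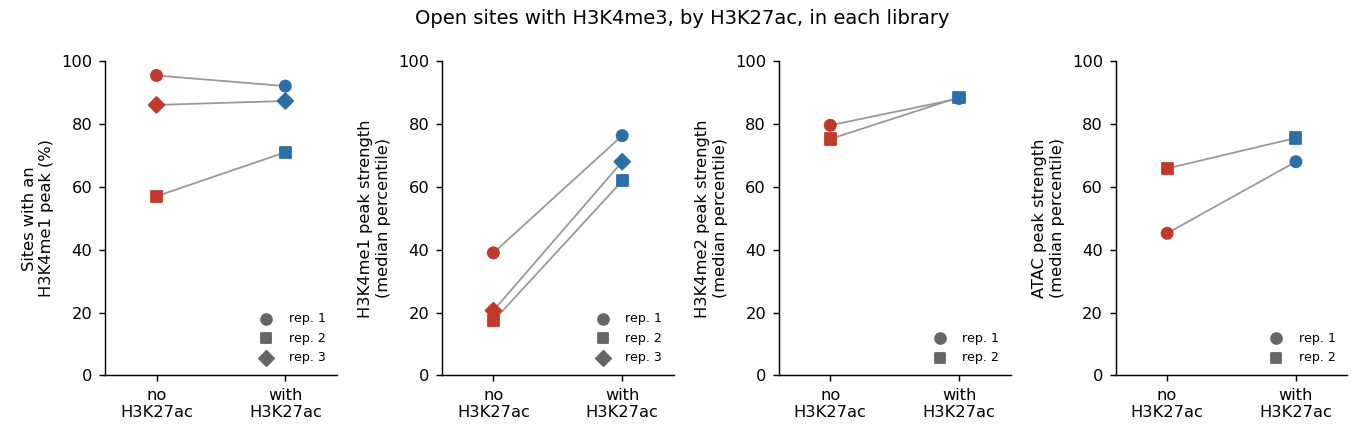
Open sites with H3K4me3 but no H3K27ac (red, left) and with both (blue, right) in each library, joined by a line. From left to right the y axes give the share of sites with an H3K4me1 peak (%), and the median percentile of the H3K4me1, H3K4me2 and ATAC peaks over the sites among all peaks of the library. The share with H3K4me1 moves in different directions between libraries, whereas each of the 3 strength measures is lower at sites without H3K27ac in every library.

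The H3K4me1 share also ran in opposite directions with H3K4me3 strength in the 2 classes. In the lowest quartile of H3K4me3 fold, H3K4me1 met 93.6%, 53.3% and 81.4% of sites without H3K27ac (n = 1369) in replicates 1, 2 and 3, against 99.7%, 96.5% and 99.4% of sites with both marks (n = 1708). That difference was -22.4 ± 18.9 points, negative in 3 of 3 libraries (exact sign-flip p = 0.25, the smallest possible). In the second quartile it was -4.29 ± 8.73 points and in the third 2.65 ± 4.63. In the highest quartile, where only 17 sites had no H3K27ac, the shares were 100%, 70.6% and 100% against 83.1%, 57.0% and 75.9%. The 2 classes were spread unevenly over the quartiles. The 2 lower quartiles held 1369 and 725 of the sites without H3K27ac, and the 2 higher quartiles 2978 and 3060 of the sites with both marks. The mean of the 4 quartile differences, each counted equally, was -1.46 ± 8.85 points.

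Around the ATAC summit the marks covered a short stretch. H3K4me3 covered 87.0% and 94.3% of summits in its 2 libraries and 20.1% and 28.0% of positions 1 kb away, against 94.8% and 98.5% of summits and 50.1% and 60.1% at 1 kb for sites with both marks. H3K4me2 covered 99.4% and 99.3% of summits and 56.1% and 54.9% at 1 kb, against 99.99% and 99.97% of summits and 85.0% and 86.7% at 1 kb for sites with both marks. At 5 kb, cover by every mark was low, at most 11.5% for H3K4me1, 8.26% for H3K4me2 and 2.63% for H3K27ac. Sites with both marks had up to 34.7%, 24.7% and 18.7% there.

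H3K4me1 cover was higher at the ATAC summit than 1 kb away in every library. At 0.25 kb it was 88.9%, 45.5% and 75.9% in replicates 1, 2 and 3, above the summit value in replicate 2. H3K4me1 covered 90.2%, 43.5% and 76.5% of summits in replicates 1, 2 and 3 and 51.9%, 27.8% and 39.8% of positions at 1 kb, a change with distance of -30.3 ± 12.6 points (SD, n = 3). At 0.5 kb the change was -6.59 points. At sites with both marks cover was lower at the summit than at 1 kb, with 74.1%, 47.9% and 64.7% at the summit and 82.6%, 68.0% and 77.4% at 1 kb, a change of 13.7 ± 5.87 points. The change was negative in 3 of 3 libraries at sites without H3K27ac and positive in 3 of 3 at sites with both marks. The 2 changes differed by -44.0 ± 7.20 points (exact sign-flip p = 0.25, the smallest possible). The fall was not particular to sites with H3K4me3 and no H3K27ac. The change was -26.4 ± 5.88 points at sites with neither mark and -12.9 ± 3.77 points at sites with H3K27ac alone, negative in 3 of 3 libraries for each, so of the 4 classes of open site only those with both marks had the opposite sign.

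Part of that contrast went with the width of H3K4me3. On H3K4me3 regions of 1 to 2 kb the change was -35.7 ± 13.2 points without H3K27ac and -16.0 ± 4.25 points with it. The difference shrank to -19.7 ± 9.11 points. At this width, cover at sites with both marks was thus not lower at the summit than at 1 kb. Their mean cover at 0.25 kb was still slightly above that at the summit (87.8% against 86.8%), higher in 3 of 3 libraries. With −log10 q of at least 5 the change at sites without H3K27ac was -2.98 ± 4.49 points, not of the same sign in every library. The difference was then -14.9 points. Cover at 1 kb itself differed from that at sites with both marks by -36.1 ± 4.88 points over all sites and by -33.4 ± 5.01 points on regions of 1 to 2 kb. Each was negative in 3 of 3 libraries (exact sign-flip p = 0.25 for each).

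**Figure D4:**
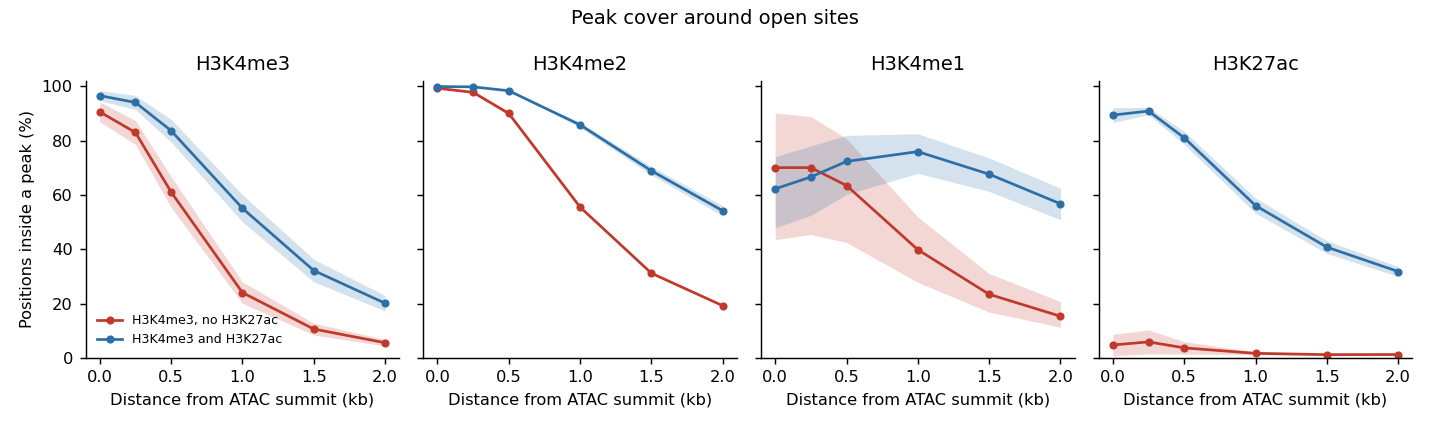
Share of positions inside a peak (y axis, %) by distance from the ATAC summit (x axis, kb, both sides averaged) for 4 marks, at open sites with H3K4me3 but no H3K27ac (red, 2209 sites) and with both (blue, 10097 sites). Lines are means over libraries and bands the range of the libraries (3 for H3K4me1, 2 for each other mark). Mean H3K4me1 cover falls from the summit outwards in red but is highest at 1 kb in blue (76.0%).

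Among the sites themselves, H3K4me1 sorted them by strength and by distance from acetylated chromatin. H3K4me1 peaks were found in all 3 libraries at 1234 sites (55.9%), in 2 at 677, in 1 at 212 and in none at 86 (3.89%, 95% interval 3.13 to 4.79). From 0 to 3 libraries the median ATAC percentile was 27.7, 32.7, 41.2 and 50.9 in replicate 1 and 51.5, 55.1, 62.9 and 69.6 in replicate 2. H3K4me3 fold followed the same order, at 3.76, 4.34, 5.17 and 5.34 in replicate 1. The median distance to H3K27ac ran the other way, at 153, 71.0, 41.8 and 23.4 kb. With the 407 sites that held a single-library H3K27ac peak left out, the distances were 150, 73.1, 44.3 and 24.8 kb. Site width followed this order too, with medians of 456.5, 469, 582 and 629 bp, and the chance of meeting a peak grows with width. The part of width in these values was not tested.

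**Figure D5:**
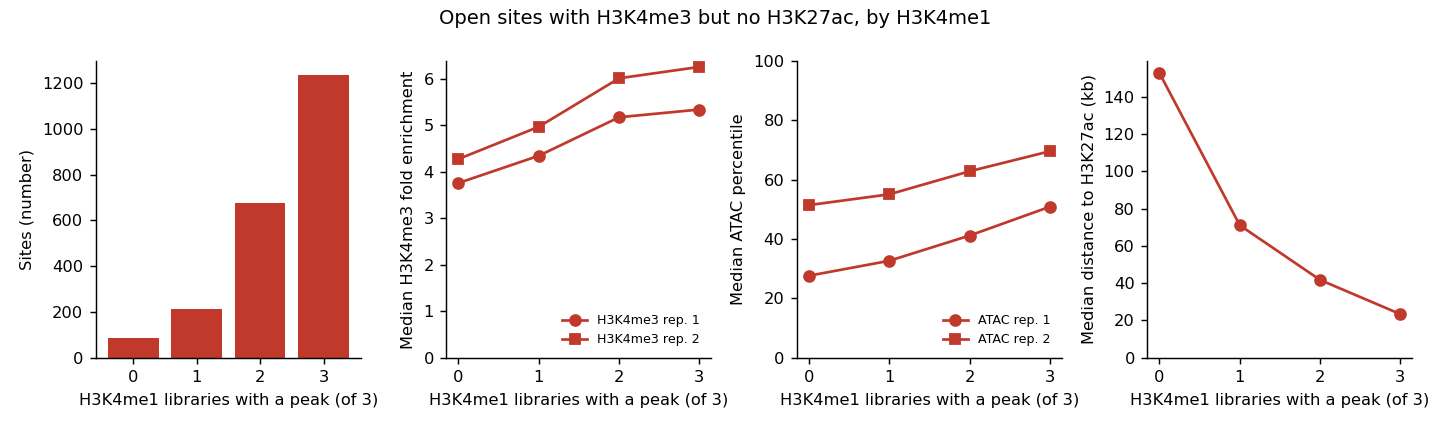
The 2209 open sites with H3K4me3 but no H3K27ac by the number of H3K4me1 libraries with a peak on the site (x axis, 0 to 3). Panels give the number of sites, the median H3K4me3 fold enrichment and the median ATAC percentile in each library, and the median distance to H3K27ac in kb. Sites rise from 86 to 1234, H3K4me3 and ATAC values rise with them, and the distance falls to 23.4 kb.

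The sites were spread over all autosomes and chromosome X. They made up 9.70% of open sites on chromosome 18 (39 of 402, 95% interval 6.99 to 13.0) and 10.2% on chromosome 1 (98 of 962, 8.35 to 12.3), the lowest shares, and 17.3% on chromosome 15 (110 of 637, 14.4 to 20.4), the highest. On chromosome X they were 69 of 433, or 15.9% (12.6 to 19.7), an interval that includes the 13.6% over all chromosomes. Without the sites that held an H3K27ac peak of a single library the chromosome X share was 12.2%, against 11.1% over all chromosomes. It was 31.6% when peaks under a −log10 q of 5 were left out, against 22.8% over all chromosomes. Chromosome Y had 8 open sites and none of this class (95% interval 0 to 36.9%).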

How the data were processed

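Tools named in the submitters' processing notes are MACS2, SAMtools, Trimmomatic (version 0.32) and Bowtie (version 1.0.1), with mm9 as the mouse build. For settings, the MACS2 version and the control the sources used here give nothing, and the protocol attached to the ATAC samples describes ChIP, so how cut sites were treated is unknown. The authors deposited 1 peak list per library, broad for ChIP and narrow for ATAC, each with a score, the −log10 of a p and of a q value, and a fold enrichment, which is a ratio to background. Positions are counted from 1. The lists hold no read counts, so depth is unknown, and a shorter list may be a shallower library. List lengths ran from 14027 to 16886 peaks for H3K4me3, 23733 to 28387 for H3K27ac, 42323 to 52387 for H3K4me1, 41765 to 42334 for H3K4me2 and 18441 to 28980 for ATAC.

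Only 7 peaks lay off chromosomes 1 to 19, X and Y, and these were set aside. Regions were merged and overlapped with Python 3.11.15, NumPy 2.4.6, pandas 2.3.3 and SciPy 1.17.1, with interval code tested on simulated data. Values per region or site are the highest overlapping peak's. Fold enrichments were mostly compared between sites within a library. Means over libraries set the H3K4me3 quartiles and the choice of named sites by fold. Means were also used for the sites at the rule's limit and for the correlation of ATAC with H3K4me3 fold. Tests were two-sided exact sign-flip tests over libraries, since sites of a genome are not replicates. The sites and comparisons were chosen with earlier results of these data known. Named sites are the 5 highest in ATAC and H3K4me3 fold, on the widest H3K4me3 and farthest from H3K27ac, those on the 3 H3K4me3 regions holding most, and those at the rule's limit. The reference tables are on GRCm38, so gene, marker, base composition and sequence descriptions planned for an mm9 reference were not made.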

Additional observations from a re-analysis of the deposited data

How the results depend on the processing

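The mean differences in ATAC rank, in H3K4me1 and H3K4me2 peak ranks and in H3K4me2 share kept their direction in every alternative run. So did the mean fall of H3K4me1 cover from summit to 1 kb. ATAC rank differences ran from -25.3 to -5.19 points. With −log10 q of at least 5, single libraries did not share a sign for ATAC rank (-5.19 ± 8.05 points) or for the fall of H3K4me1 cover (-2.98 ± 4.49 points). No alternative could pass 0.05, since the designs allow no p under 0.25. The H3K4me1 share turned to 10.3 points with the summit inside the region and 2.12 points with bases covered in every library. It ran from -7.63 to 1.07 points without 1 H3K4me1 library, the highest without replicate 2, and was -23.2 points with −log10 q of at least 5.

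That threshold changed the class most. Consensus H3K27ac regions then numbered 7895 of 18238 and H3K4me3 regions 10160 of 13600, and the share of open sites was 22.8%. Of the 2209 sites 69.2% remained, and they made up 44.7% of the 3421 so chosen. The H3K4me3 fold was then 7.80, the distance to H3K27ac 46208 bp, the share with a single-library H3K27ac peak 24.2% and the chromosome X share 31.6%. With the summit inside the region these were 6.27, 17746 bp, 7.38% and 18.9%, and the share of open sites was 17.1%. With no H3K27ac peak of either library the share of open sites was 11.1% and that of chromosome X 12.2%. With bases covered in every library the single-library share was 23.3%. Leaving out 1 library each of ATAC, H3K4me3 and H3K27ac gave 11.4% to 14.7% of open sites and 13.2% to 17.6% of chromosome X, the lowest without H3K27ac replicate 2, and 28126 to 34445 bp to H3K27ac. The H3K4me3 fold then ran from 5.07 to 5.63. Measuring only H3K4me3 regions of 1 to 2 kb, keeping only sites with H3K4me2, and all alternatives for peak ranks and for the difference in H3K4me1 change were chosen after seeing the data. The causes of these moves were not tested. No paired analysis was possible because no result compares groups of libraries that share replicate numbers. The sign-flip tests instead pair the classes of site within each library.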

Other observations

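Open sites with H3K4me3 but no H3K27ac stood in sparser surroundings than sites with both marks. The nearest other open site was a median of 25.8 kb away, against 11.4 kb for sites with both marks and 22.1 kb for sites with neither. Another open site lay within 2 kb of 12.0% of them, against 24.4% of sites with both marks. For 549 of the 2209, 24.9%, the nearest open site was of the same class. The nearest site was of this class for 17.3% of sites with neither mark and 12.1% of all open sites. There were 99 H3K4me3 regions that held 2 of the sites and 1 that held 3. Where the nearest site was more than 10 kb away, the share was 19.03% (n = 1582), against 14.5% over all open sites (n = 9411), 13.7% for sites with both marks and 17.2% for sites with neither (n = 1270), so the value was close to that of sites with neither mark.

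Some ATAC peaks seen in a single library also had H3K4me3 without H3K27ac. The strength of the marks at them was not measured. Of 1428 peaks of ATAC replicate 1 alone, 252 (17.6%) had consensus H3K4me3 and no H3K27ac, and of 12282 of replicate 2 alone, 1128 (9.18%). The share among all open sites was 13.6%. Their median ATAC folds were 3.94 and 4.44, against 5.93 and 7.40 at the 2209 sites, which had to hold a peak of both libraries. Consensus H3K4me1 met 37.7% and 66.2% of the 252 and 1128 peaks, against 85.5% of all open sites. Consensus H3K4me2 met all of them in both libraries, against 95.6% of all open sites. The shares among the remaining single-library peaks were not taken.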
